A study of Mus musculus with 18 samples.

Results

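The genes described here are the long intergenic noncoding RNAs (lincRNAs) expressed in the left ventricle of adult mice: autosomal genes that the GENCODE M21 annotation types as lincRNA and that reached 1 CPM, a library's count scaled to its summed gene counts, in at least 3 of the 18 libraries, with the imprinted gene H19 left out. The rule kept 119 of 1505 autosomal lincRNA genes, in tables that list 38355 gene identifiers in all. Of the other lincRNA genes, 866 had counts but stayed below the rule and 520 had no count in any library. All 119 had enough counts to enter the test described below. The third-highest library, which decided membership, was at 1.00 CPM for 4933406P04Rik, at 1.00 CPM for Gm26546 and at 1.01 CPM for 5430416N02Rik, just inside the rule. It was at 0.998 CPM for Gm17315, at 0.963 CPM for 1810012K08Rik and at 0.953 CPM for Gm26896, just outside it. Levels over the 18 libraries chose the genes, so their levels are given as a description, and the comparisons between groups were not part of the rule.

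A lincRNA is transcribed by RNA polymerase II from a gene of its own between protein-coding genes, and is usually capped, spliced and polyadenylated like a messenger RNA but carries no long reading frame. Some stay in the nucleus and build nuclear bodies (Malat1, Neat1), some affect the gene beside them while they are transcribed, some serve as hosts from which microRNAs or small nucleolar RNAs are cut, and for most no function is known. In the heart, lincRNAs are studied mainly for their part in cardiac lineage choice (Bvht, Handsdown in mouse) and in fibrosis and vessel growth (Meg3, Malat1).

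The 18 libraries fall into 4 groups of left ventricle from (DBA/2J x C3HeB/FeJ)F1 mice. Cyclin D2, a cell cycle activator, was expressed from the MHC-cycD2 transgene, which the myosin heavy chain promoter of heart muscle drives, in 3 of the groups. These were cycD2 Shunt (n = 5), operated with a shunt that loads the ventricle with volume, cycD2 TAC (n = 3, numbered 1, 2 and 4), operated with a constriction of the transverse aorta that loads it with pressure, and cycD2 sham (n = 5), sham-operated. WT mice (n = 5) had neither the transgene nor an operation, so the comparison of sham with WT joins the transgene and the sham operation. Surgery was at 8 weeks of age, animals of both sexes were operated, and the labels do not say which of the procedures the sham operation imitated. The promoter acts in heart muscle cells, while RNA came from the whole ventricle, so fewer cells of a type and less RNA per cell cannot be told apart anywhere below.

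Summed gene counts were 19297821 to 30594075 per library. Ccnd2 was at 17730 to 30460 CPM in the transgenic libraries and at 140.5 to 189 CPM in WT, with 1 exception: the library labelled cycD2 TAC replicate 2 had 228.1 CPM, so the main TAC results are also given without it. The libraries labelled TAC replicates 1 and 2 and all Shunt libraries had at most 9 Ddx3y counts, and the other libraries had 1987 to 2662, so the sexes were not balanced across the groups. Of the clock genes Arntl and Dbp, the first had more CPM in all 3 TAC libraries, 2 sham libraries (numbers 1 and 2) and 3 WT libraries (numbers 1 to 3), and the second in the 5 Shunt libraries and the remaining sham and WT libraries. Shunt and TAC therefore share no clock phase, so in the comparison of Shunt with TAC the operation and the phase cannot be told apart. Sham and WT hold libraries of both phases. The labelled tissue was checked by 8 ventricular muscle genes, whose summed level was 82000 to 88900 CPM in Shunt, 63200 to 94500 CPM in TAC, 92100 to 103000 CPM in sham and 76900 to 90700 CPM in WT ventricles, and for none of the 12 marker lists was a gene at 0 in every library. Atrial muscle RNA varied between libraries. The mean log2 level of Myl7, Myl4 and Sln (CPM with 0.5 added) was 5.552 to 7.367 in replicates 2 and 5 of sham, 2 and 4 of TAC, and 2 and 4 of Shunt. It was 0.179 to 3.382 in the other libraries.

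The lincRNAs were rarer, shorter and more variable than messenger RNAs picked by the same rule. Their median level was 2.23 CPM, against 23.0 CPM for 12271 protein-coding autosomal genes. Scaled to length as CPM per kilobase of merged exons (RPKM) the medians were 1.07 for the lincRNAs and 4.77 for protein-coding genes. The median lincRNA had 2483 exonic bases in 3 exon blocks, against 4589 bases in 10 blocks for protein-coding genes, and 18 lincRNAs had a single block. Within groups, averaged over Shunt, sham and WT with TAC left out, the median coefficient of variation was 20.2% for lincRNAs and 10.3% for protein-coding genes. The median of their mean counts was 53.5 reads, against 553 reads, and the part of depth in the difference in spread was not tested. Breadth varied less: 64 lincRNAs were at 1 CPM or more in all 18 libraries, 94 in libraries of all 4 groups, and 23 in libraries of 2 or 3 groups. Gm13881 reached that level in WT libraries alone, and Gm26546 in Shunt libraries alone. Clone names or Rik symbols, given to genes without a named function, were carried by 100 of the 119.

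The lincRNA label was then set against RefSeq. By symbol or synonym 90 of the 119 had a RefSeq entry, which typed 80 as long noncoding RNA, 8 as protein-coding and 2 as pseudogenes. The protein-coding ones included 1810058I24Rik, also known as Stmp1, whose locus encodes a small mitochondrial protein, as well as Tmem250-ps and Zfp469. Their tests are reported with the rest. Exons of 49 lincRNAs overlapped exons of another annotated gene, and the span of 29 overlapped a protein-coding gene. The kit did not mark strand, so reads of overlapping genes cannot be told apart, and values of those 49 are uncertain in that respect.

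The most abundant member carried ribosomal RNA sequence. Gm42418 (chr17:39846958-39848788, + strand, GRCm38) lies in what RefSeq calls Rn18s-rs5, a pseudogene of 18S ribosomal RNA, and the first 120 of its 1831 bases are shown because they identify it. The capitals, starting at base 23, mark the conserved loop CCGCGGTAA of small-subunit ribosomal RNA.
Gm42418 first bases: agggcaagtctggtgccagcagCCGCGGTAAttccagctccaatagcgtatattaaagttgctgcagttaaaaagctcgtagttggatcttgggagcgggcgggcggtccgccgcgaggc
The 18S end sequence GGATCATTA follows at base 1236. Gm42418 had 2166, 817, 830, 2122 and 988 CPM in Shunt replicates 1 to 5, 583, 791 and 1969 CPM in TAC replicates 1, 2 and 4, 1226, 2931, 1366, 1311 and 902 CPM in sham replicates 1 to 5 and 915, 822, 2654, 1126 and 646 CPM in WT replicates 1 to 5. The groups overlapped fully, and each held libraries that differed by more than 2-fold. It took 25.3% to 63.8% of all lincRNA counts of a library, while the other lincRNAs together made up 0.152% to 0.215% of gene counts. No comparison called it (sham against WT 0.33 ± 0.47, adjusted p = 0.6512, on the log2 scale, ± standard error, SE). Gm26917 (chr17:39843013-39846341), just upstream of it on the same strand and named after its values were seen, had 53.1, 25.9, 34.2, 36.7 and 47.3 CPM in Shunt, 24.1, 32.4 and 83.7 CPM in TAC, 44.1, 103, 47.1, 51.7 and 44.2 CPM in sham and 18.5, 21.2, 22.9, 27.9 and 32.3 CPM in WT. Every sham library was above every WT library (1.24 ± 0.34, adjusted p = 0.0119).

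Among transcripts outside that locus, 1700020I14Rik (chr2:119594297-119607502) was the most abundant per length, at a mean of 59.4 RPKM. RefSeq names it Oip5os1. It is also known as Cyrano, a conserved lincRNA with a site that directs the destruction of the microRNA miR-7. It stood at 414, 542, 526, 562 and 427 CPM in Shunt, 492, 380.2 and 419 CPM in TAC, 519, 458, 486, 439.6 and 492 CPM in sham and 552, 575, 616, 481 and 503 CPM in WT ventricles. The groups overlapped, and none of the comparisons called it. Next in mean level per length came 1810058I24Rik with 50.04 RPKM, Gm5532 with 49.6 RPKM, Tmem250-ps with 42.6 RPKM and 2900076A07Rik with 33.5 RPKM.

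Gm5532 (chr1:155520173-155527143), an intergenic transcript of unknown function, had 145, 74.9, 72.7, 82.1 and 102 CPM in Shunt, 86.7, 106 and 89.1 CPM in TAC, 71.2, 61.4, 95.4, 88.9 and 87.8 CPM in sham and 184, 146, 142, 143 and 191 CPM in WT. Sham and WT libraries did not overlap, and the sham level was lower (-0.99 ± 0.17, adjusted p = 5.51e-04). Among the 3 operated groups no comparison called it. The small-protein locus 1810058I24Rik averaged 123 ± 6.72 CPM in Shunt and 156 ± 11.4 CPM in TAC (SD, n = 5 and 3), a difference of -0.34 ± 0.11, adjusted p = 0.0243. Without TAC replicate 2 it was -0.31, adjusted p = 0.1024. Tmem250-ps fell slightly in TAC, to 98.8 ± 12.7 CPM against 115 ± 9.44 CPM in sham (-0.21 ± 0.08, adjusted p = 0.0393), and was not called without TAC replicate 2 (-0.16, adjusted p = 0.1764).

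**Figure D1:**
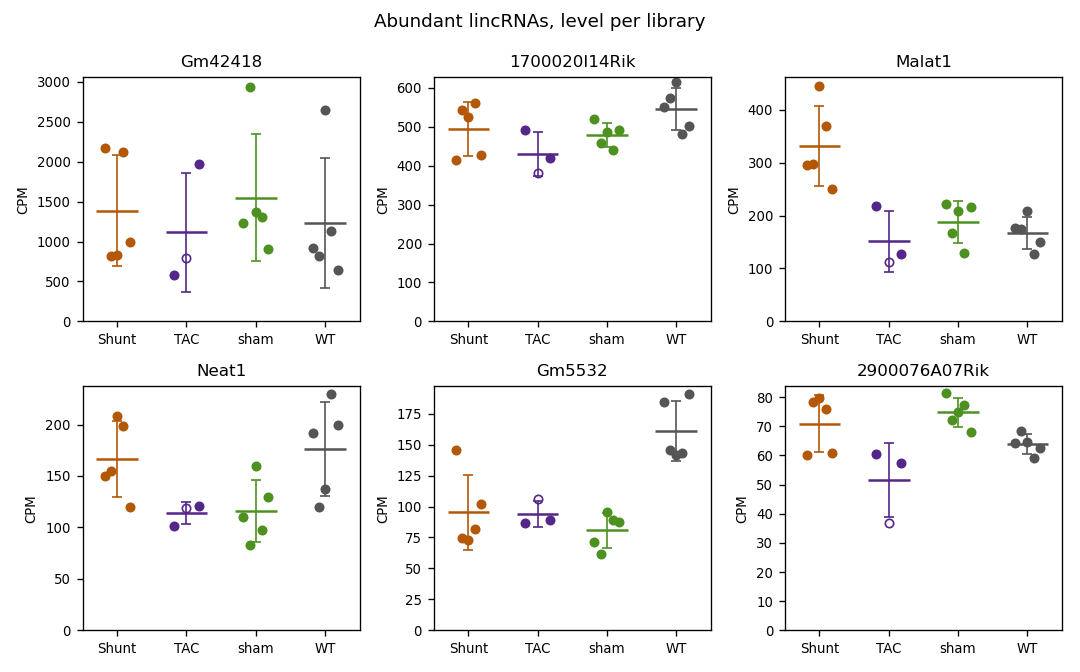
Level in CPM (vertical axes, from 0) of 6 abundant lincRNAs in each library of the Shunt, TAC, sham and WT groups. Points are libraries, horizontal bars are group means, error bars are SD, and the open circle is the library labelled TAC replicate 2. Gm42418 spreads widely in every group, the Malat1 points of Shunt sit above those of sham and TAC, and the Gm5532 points of WT sit above those of sham.

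Malat1 and Neat1, the nuclear body RNAs of the set, are neighbours on chromosome 19. Malat1 (chr19:5795690-5802672, - strand, 1 exon) sits in nuclear speckles and Neat1 (chr19:5824708-5845478, - strand) is the scaffold of paraspeckles. Malat1 is not closed by an ordinary poly(A) tail: its 3′ end folds into a triple helix. The element is shown because it takes the place of the tail in the mature RNA, while the libraries were made from poly(A)-selected RNA. The capitals mark the pair of U-rich runs and the A-rich tract of the helix, the first at base 6606 of the 6983 in the transcript, and the tRNA-like mascRNA follows.
Malat1 3-prime element: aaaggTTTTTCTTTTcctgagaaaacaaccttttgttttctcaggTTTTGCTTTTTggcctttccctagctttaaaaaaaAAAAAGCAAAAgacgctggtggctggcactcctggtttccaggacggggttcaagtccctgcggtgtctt
Malat1 had 296, 298, 445, 369.9 and 251 CPM in Shunt, 218, 111 and 127 CPM in TAC, 222, 166, 209.5, 129.7 and 216 CPM in sham and 177, 176, 208, 127 and 151 CPM in WT. All 5 Shunt libraries were above all libraries of the other groups. The difference from TAC was called (1.13 ± 0.24, adjusted p = 0.0028, and 0.95, adjusted p = 0.0233 without TAC replicate 2). The difference from sham was not called by edgeR (0.81 ± 0.20, adjusted p = 0.1233), although the same comparison passed in DESeq2 (0.81, adjusted p = 0.00837).

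Neat1 had 150.2, 155, 209, 199 and 119.6 CPM in Shunt, 102, 119 and 121 CPM in TAC, 110, 83.1, 160.1, 97.2 and 129.9 CPM in sham and 192, 120, 137, 229.9 and 199.7 CPM in WT libraries. It fell in sham relative to WT (-0.60 ± 0.20, adjusted p = 0.0323), with overlapping groups and with a call in 11 of 22 other settings. Within either clock phase the call was lost (-0.62, adjusted p = 0.0967 with Arntl above Dbp, and -0.72, adjusted p = 0.0898 with Dbp above Arntl). The third nuclear body RNA looked for, Miat, was far below the rule, with group means of at most 0.0293 CPM.

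Across the whole set, the share of lincRNAs called in 1 direction was above the share of all genes in 3 of the 4 comparisons. The difference of the shares was not tested. A gene was called at an adjusted p under 0.05 in edgeR's quasi-likelihood test over 14876 genes. In sham against WT, 26 lincRNAs (21.8%) were higher, where 13.5% of all genes tested were, and 15 (12.6%) were lower, where 14.9% of all genes were. In TAC against sham, 15 (12.6%) were higher against 16.4% of all genes, and 24 (20.2%) were lower against 14.5% of all genes. In Shunt against TAC, 27 (22.7%) were higher against 13.3% of all genes, and 9 (7.56%) were lower against 13.6% of all genes. Shunt against sham gave 0 higher and 0 lower lincRNAs, where 0.108% and 0.134% of all genes were called. The median log2 difference of the 119 was 0.16 in sham against WT, -0.10 in TAC against sham, 0.02 in Shunt against sham and 0.14 in Shunt against TAC, and the medians over all genes were -0.01, 0.01, 0.00 and -0.01 in that order. In total 70 lincRNAs were called in at least 1 comparison and 49 in none. The matching share of all genes is not given, so this count is not read as particular to lincRNAs. Sham is shared by 3 of the comparisons and TAC by 2, so calls of opposite direction beside a shared group are not independent.

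**Figure D2:**
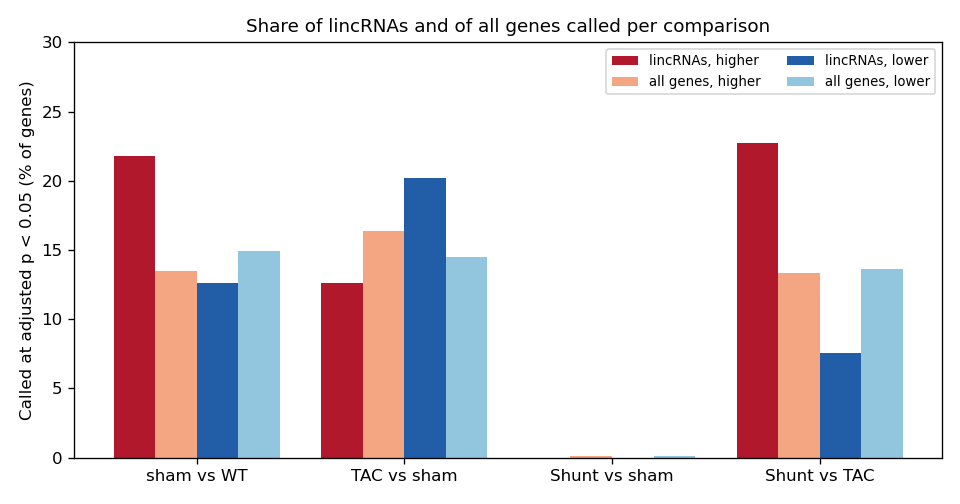
Share of genes called at an adjusted p under 0.05 (vertical axis, %) in each of the 4 comparisons, as bars from 0 for the 119 lincRNAs and for all 14876 genes tested, split into higher and lower in the first-named group. The lincRNA bars exceed the bars of all genes for higher in sham against WT (21.8% and 13.5%), lower in TAC against sham (20.2% and 14.5%) and higher in Shunt against TAC (22.7% and 13.3%).

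Genes of the same level rule but other classes were counted for comparison, 142 antisense genes, 108 of the processed transcript class and 12271 protein-coding genes. Of the antisense genes, 15.5% were lower and 8.45% higher in TAC than in sham, of the processed transcripts 10.2% were lower and 9.26% higher, and of the protein-coding genes 1969 were lower and 2183 higher. In Shunt against TAC, 14.8% of the antisense genes were higher and 5.63% lower, of the processed transcripts 11.1% were higher and 7.41% lower, and of the protein-coding genes 14.4% were higher and 14.9% lower. In sham against WT, 18.3% of the antisense genes were higher and 16.2% lower, of the processed transcripts 10.2% were higher and 10.2% lower, and of the protein-coding genes 1773 were higher and 1966 lower. The processed transcripts thus stood below all genes tested where the lincRNAs stood above them. The antisense genes stood above all genes there too, by less than the lincRNAs. Their shares were 18.3% against 13.5% higher in sham than WT and 15.5% against 14.5% lower in TAC than sham. For higher in Shunt than TAC they were 14.8% against 13.3%. These shares were set side by side without a test of their difference.

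In sham ventricles, 26 lincRNAs stood above WT by 0.40 to 1.46 on the log2 scale, and 15 fell by 0.30 to 2.46. The rise was clearest for Gm5860, 5033428I22Rik, 4632415L05Rik, 5031425E22Rik, 4933404O12Rik and 4632428C04Rik, and the fall for Gm20619, Gm5532, Gm13943 and A930029G22Rik. Gm13881 and Gm10010 were lower too, but entered the set through their WT libraries. Libraries of the groups did not overlap for 35 lincRNAs (29.4%), as for 22.3% of all genes tested. Outside WT, 3 of the 15 lower lincRNAs (Gm13881, Gm10010 and Gm11752) reached 1 CPM in fewer than 3 libraries, and so did 1 of the 26 higher ones (Gm20554) outside sham. The level rule itself favoured a difference for these 4, among them Gm13881 with the fall of 2.46. Because both groups hold libraries of both clock phases, the comparison could be repeated within each. In both phases every sham library lay outside the WT libraries of that phase for 24 of the 26 higher and 14 of the 15 lower lincRNAs, against 86.6% and 86.3% of all genes called. The calls came from these same libraries, so this is a description. Fitted in 1 phase alone, 3 higher and 7 lower calls were made with Arntl above Dbp, and 13 higher and 4 lower with Dbp above Arntl, and the lower calls numbered 9 without WT replicate 1. These fits hold fewer libraries, and their counts over all genes are not given.

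5033428I22Rik (chr8:57332118-57354580, + strand, 7 exon blocks), known in mouse as Handsdown, lies 7485 bases from Hand2, a transcription factor of heart development, and is itself needed for heart development in mouse. It had 5.27, 6.65, 5.195, 5.06 and 5.82 CPM in Shunt, 4.39, 3.82 and 5.32 CPM in TAC, 5.93, 6.07, 4.78, 5.34 and 5.27 CPM in sham and 3.39, 3.35, 2.603, 3.57 and 2.85 CPM in WT ventricles. Every Shunt, TAC and sham library was above every WT library, and sham rose over WT by 0.80 ± 0.13, adjusted p = 1.87e-04. Hand2 did not pass the test in that comparison (0.19 ± 0.19, adjusted p = 0.4806) and was lower in TAC than in sham (-0.66 ± 0.22, adjusted p = 0.0289, and -0.71, adjusted p = 0.0692 without TAC replicate 2). Handsdown did not pass in TAC against sham (-0.28 ± 0.14, adjusted p = 0.1416).

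Gm5860 (chr4:82065431-82102808), an uncharacterised transcript 187365 bases from the transcription factor gene Nfib, averaged 7.302 ± 0.835 CPM in sham and 3.61 ± 0.333 CPM in WT (SD, n = 5 each), a rise of 1.02 ± 0.15, adjusted p = 1.30e-04. Nfib itself did not pass (-0.00 ± 0.05, adjusted p = 0.9694). For 4632415L05Rik, which RefSeq types as a transcribed pseudogene, the means were 5.94 ± 0.545 CPM in sham and 3.73 ± 0.332 CPM in WT (0.67 ± 0.11, adjusted p = 3.15e-04). 4933404O12Rik averaged 4.14 ± 0.265 CPM in sham and 2.61 ± 0.357 CPM in WT (0.66 ± 0.13, adjusted p = 9.96e-04). For all of these the groups did not overlap.

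Gm13881 (chr2:103912024-103918960, 2 exon blocks) is an uncharacterised transcript 39026 bases from Lmo2, a cofactor of blood and endothelial transcription. It entered the set through its WT libraries, so its difference between sham and WT is given as a description, with no test. It had 0.346, 0.245, 0.737, 0.4095 and 0.357 CPM in Shunt, 0.399, 0.355 and 0.258 CPM in TAC, 0.131, 0.189, 0.0919, 0.411 and 0.177 CPM in sham and 1.15, 1.03, 0.737, 1.27 and 1.38 CPM in WT. Sham and WT did not overlap, and the log2 difference was -2.46, or -2.54 with Arntl above Dbp and -2.50 with Dbp above Arntl. Lmo2, which the rule did not touch, fell to 18.96 to 22.5 CPM in sham against 39.1 to 45.1 CPM in WT (-1.03 ± 0.09, adjusted p = 9.92e-07).

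Gm20619 was at 2.08 to 3.43 CPM in sham and 4.93 to 7.32 CPM in WT (-1.02 ± 0.17, adjusted p = 2.83e-04). A930029G22Rik was at 0.689 to 1.42 CPM in sham and 1.76 to 2.603 CPM in WT (-1.29 ± 0.25, adjusted p = 8.90e-04). Gm10010, which also entered the set through WT, was at 0.319 to 0.752 CPM in sham and 0.994 to 1.64 CPM in WT. All 3 had groups that did not overlap. Some markers of other cell types and measures of read assignment moved with this comparison. Of 7 endothelial markers 4 were lower in sham (summed level 915 to 1210 CPM in sham, 1130 to 1500 CPM in WT), and of 6 mesothelial markers 5 were lower (5.75 to 8.05 CPM in sham, 6.46 to 39.9 CPM in WT). The smooth muscle and pericyte list had 2 of 7 lower. Of 5 skeletal muscle markers tested 4 were higher, by 2.34 to 4.67 on the log2 scale. The 1 lower marker, Ckm, made most of the summed level (2120 to 2600 CPM in sham, 2730 to 2980 CPM in WT). Of 4 atrial muscle markers tested 2 were higher and 1 lower. The higher ones were Myl7 (means 101.4 CPM in sham, 1.955 CPM in WT) and Myl4 (148.6 CPM in sham, 7.557 CPM in WT), and the lower one was Nppa (45.33 CPM in sham, 216.4 CPM in WT). Of uniquely aligned reads, those assigned to no gene were 14.91% to 17.9% in sham and 19% to 22.78% in WT, and non-unique alignments were a share of 39.07% to 41.85% in sham and 43.1% to 45.94% in WT, without overlap in either. Their part in the result was not tested.

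**Figure D3:**
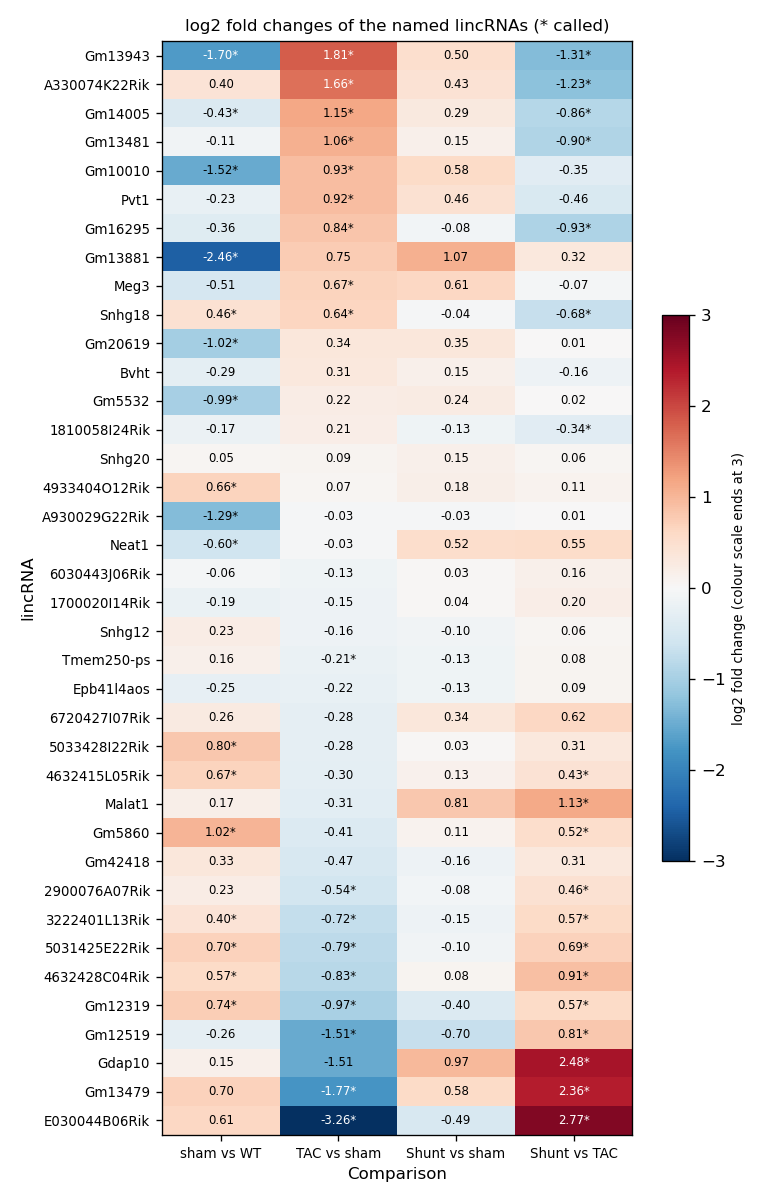
Log2 differences of the 38 named lincRNAs (rows, sorted by TAC against sham) in 4 comparisons (columns: sham against WT, TAC against sham, Shunt against sham, Shunt against TAC). Red is higher and blue lower in the first-named group, the colour scale ends at 3 in either direction, and a star marks an adjusted p under 0.05. In sham against WT, the level rule favoured the differences of Gm13881 and Gm10010, which entered the set through WT. E030044B06Rik is at one end of the TAC against sham column (-3.26) and Gm13943 at the other (1.81), and the Shunt against sham column holds no star.

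Under pressure load, 24 lincRNAs fell by 0.21 to 3.26 on the log2 scale in TAC relative to sham, and 15 rose by 0.44 to 1.81. The clearest rises were those of Gm14005, A330074K22Rik, Snhg18, Gm13943, Gm16295 and Gm13481, and the clearest falls those of E030044B06Rik, 4632428C04Rik, 5031425E22Rik, Gm12519, Gm12319 and 3222401L13Rik. Groups did not overlap for 37 lincRNAs (31.1%), as for 28.1% of all genes tested, and 1 of the 24 lower lincRNAs (6430710C18Rik) reached 1 CPM in fewer than 3 libraries outside sham. Without TAC replicate 2, 10 of the 15 higher and 15 of the 24 lower calls remained, in a fit with fewer TAC libraries. Matching shares of all genes in this and other alternative fits are not given, so losses are not read as particular to lincRNAs. TAC replicate 4 alone, which resembles sham in Ccnd2 and in Ddx3y counts, lay outside all sham libraries in the called direction for 13 of the 15 higher and 23 of the 24 lower lincRNAs, against 83.0% and 86.9% of all genes called. Within the phase with Arntl above Dbp, TAC lay outside sham for 12 of 15 and 24 of 24, against 83.2% and 87.5% of all genes called, and the fit in that phase alone made 6 higher and 9 lower calls. The calls were made from these same libraries, so such separation is favoured and is given as a description. With the level of Y-linked genes as a covariate, with TAC replicate 4 the TAC library whose Y-linked counts were like those of sham, 2 higher and 0 lower calls were made. The higher calls numbered 7 without TAC replicate 1, 9 without sham replicate 3 and 9 with the clock covariate, and a fit blocked by replicate number called 10 higher and 23 lower.

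Markers of non-muscle cells moved in the same comparison. All 8 fibroblast markers were higher in TAC (summed level 3070 to 7910 CPM in TAC, 1220 to 2300 CPM in sham), as were 4 of 7 endothelial markers (1240 to 1380 CPM in TAC, 915 to 1210 CPM in sham) and 3 of 7 smooth muscle and pericyte markers (1530 to 2450 CPM in TAC, 1170 to 1830 CPM in sham). Of 8 ventricular muscle markers 4 were lower and 1 higher. For red blood cells 1 of 4 tested markers was lower, with sums of 16.6 to 35.8 CPM in TAC and 40.2 to 431 CPM in sham. Of 5 skeletal muscle markers tested 3 were lower (1330 to 1870 CPM in TAC, 2120 to 2600 CPM in sham). Ckm, 1 of the 3, made most of these sums (means 1654 CPM in TAC, 2238 CPM in sham). Of 4 atrial muscle markers tested 1 was called, the natriuretic peptide gene Nppa (means 3468 CPM in TAC, 45.33 CPM in sham, log2 difference 6.26, adjusted p = 4.67e-05), and it made most of their sum (2400 to 5000 CPM in TAC, 84.4 to 782 CPM in sham). Without TAC replicate 2, 5 of 8 fibroblast, 1 of 7 endothelial and 2 of 7 smooth muscle markers were called higher and 3 skeletal muscle markers lower. Read assignment differed too, without overlap. Uniquely aligned reads of no gene were 13.64% to 14.86% in TAC and 14.91% to 17.9% in sham, and those of more than 1 gene were 1.812% to 2.16% in TAC and 1.469% to 1.544% in sham. Non-unique alignments were 37.69% to 39% in TAC and 39.07% to 41.85% in sham. Their part in the lincRNA differences was not tested.

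Gm14005 (chr2:128178319-128502765, - strand, 16 exon blocks) is known in mouse as Morrbid, a lincRNA that represses the neighbouring cell death gene Bcl2l11 in short-lived myeloid cells. It had 2.27, 2.28, 1.41, 2.09 and 1.82 CPM in Shunt, 3.43, 4.18 and 3.13 CPM in TAC, 1.57, 1.62, 1.93, 1.69 and 1.24 CPM in sham and 2.24, 2.11, 2.21, 2.17 and 2.09 CPM in WT. The TAC libraries lay above all the others, and the rise over sham was 1.15 ± 0.17, adjusted p = 9.94e-05, or 1.01, adjusted p = 0.0011 without TAC replicate 2 and 1.16, adjusted p = 0.0160 within the phase with Arntl above Dbp. Shunt was below TAC (-0.86 ± 0.17, adjusted p = 0.0012). Bcl2l11, 15772 bases away on the other strand, had 20.1, 60.8, 56.5, 55.9 and 33.7 CPM in Shunt, 14.4, 14.03 and 31.9 CPM in TAC, 39.6, 43.8, 53.7, 37.1 and 54.3 CPM in sham and a mean of 17.7 ± 4.27 CPM in WT (SD, n = 5). It was lower in TAC than in sham (-1.19 ± 0.35, adjusted p = 0.0169), though not without TAC replicate 2 (adjusted p = 0.0905), and higher in sham than in WT (1.37 ± 0.30, adjusted p = 0.0028). In sham against WT, Gm14005 was at the threshold (-0.43 ± 0.16, adjusted p = 0.0489) and was called in 4 of 22 other settings. Macrophage markers summed to 310 to 510 CPM in TAC and 266 to 398 CPM in sham, with 1 of 8 higher, and their part was not tested.

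Snhg18 (chr15:32240565-32244662, - strand, 2 exon blocks) hosts a small nucleolar RNA and starts 148 bases from Sema5a, a guidance protein gene on the other strand. It had 13.1, 10.7, 9.99, 10.98 and 11.2 CPM in Shunt, 18.9, 15.5 and 19.6 CPM in TAC, 12.1, 12.4, 9.74, 11.5 and 11.8 CPM in sham and 8.97, 8.24, 7.76, 8.32 and 8.56 CPM in WT. TAC lay above every other library, by 0.64 ± 0.10, adjusted p = 1.85e-04 over sham (0.72, adjusted p = 0.000198 without TAC replicate 2), and was called in all 19 other settings, the Y-linked covariate included. Sham in turn rose over WT (0.46 ± 0.09, adjusted p = 0.0013), and Shunt was below TAC (-0.68 ± 0.10, adjusted p = 1.76e-04). Sema5a rose in TAC too (0.63 ± 0.18, adjusted p = 0.0125, and 0.67, adjusted p = 0.0239 without TAC replicate 2), and did not pass in sham against WT (0.19 ± 0.16, adjusted p = 0.4040).

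Gm13943 (chr2:77314751-77317035, exon length 343 bases), uncharacterised, was low in sham. It had 4.88, 1.55, 2.15, 1.82 and 3.51 CPM in Shunt, 9.06, 4.26 and 7.38 CPM in TAC, 2.01, 1.395, 2.11, 2.24 and 2.12 CPM in sham and 7.32, 7.58, 6.39, 3.84 and 6.86 CPM in WT. TAC and WT overlapped each other and both lay above sham. The test gave 1.81 ± 0.32, adjusted p = 4.71e-04 for TAC against sham (2.04, adjusted p = 0.000425 without TAC replicate 2), -1.70 ± 0.29, adjusted p = 4.50e-04 for sham against WT and -1.31 ± 0.31, adjusted p = 0.0053 for Shunt against TAC. The first of these held in 19 of 19 other settings.

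A330074K22Rik (chr8:120204434-120228230) was at 3.23, 2.52 and 1.93 CPM in TAC and at 0.548 to 1.06 CPM in sham, without overlap (1.66 ± 0.25, adjusted p = 1.00e-04, and 1.65, adjusted p = 0.000504 without TAC replicate 2). Gm16295 (chr9:118924873-118925777), 676 bases from the phosphatase gene Ctdspl on the same strand, was at 2.35, 2.68 and 2.32 CPM in TAC and 1.01 to 1.64 CPM in sham (0.84 ± 0.20, adjusted p = 0.0036). Without TAC replicate 2 it was 0.76, adjusted p = 0.0231. Ctdspl rose with it (0.90 ± 0.15, adjusted p = 2.98e-04, and 0.66, adjusted p = 0.0041 without TAC replicate 2), and at this distance reads beyond the annotated end of 1 gene could be counted in the other. Gm13481 averaged 2.27 ± 0.315 CPM in TAC and 1.09 ± 0.369 CPM in sham (1.06 ± 0.30, adjusted p = 0.0116) and was not called without TAC replicate 2 (0.93, adjusted p = 0.0572). Gm10010 was called higher in TAC (0.93 ± 0.34, adjusted p = 0.0463) from overlapping groups. It was called in 5 of 19 other settings and was lost both with the replicate block (1.04, adjusted p = 0.0554) and without TAC replicate 2 (0.41, adjusted p = 0.4484).

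E030044B06Rik (chr19:40868304-40882639, + strand, 7 exon blocks), uncharacterised, fell the most. It had 0.7304, 1.18, 2.01, 1.23 and 0.552 CPM in Shunt, 0.1596, 0.118 and 0.215 CPM in TAC, 1.003, 1.13, 2.02, 1.78 and 2.12 CPM in sham and 1.295, 0.618, 0.982, 1.13 and 1.203 CPM in WT. The TAC libraries held 4, 3 and 5 reads of it and the sham libraries 23, 30, 44, 39 and 48, and no library of another group came as low as TAC. The fall was -3.26 ± 0.48, adjusted p = 9.46e-05, -3.09, adjusted p = 0.000985 without TAC replicate 2 and -2.67, adjusted p = 0.0087 within the phase with Arntl above Dbp. Shunt was above TAC (2.77 ± 0.49, adjusted p = 5.58e-04). With counts this low the size of the difference is poorly fixed.

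4632428C04Rik (chr16:30008667-30021430) and 5031425E22Rik (chr5:23382308-23434269) shared a course across the groups. 4632428C04Rik, 42954 bases from the Notch target gene Hes1, had 15.1, 17.2, 14.1, 12.1 and 16.2 CPM in Shunt, 6.903, 6.86 and 10.1 CPM in TAC, 13.8, 14.7, 14.1, 15.6 and 12.4 CPM in sham and 9.47, 10.3, 8.89, 9.49 and 9.49 CPM in WT. 5031425E22Rik, 172 bases from the chromatin gene Kmt2e on the other strand, had 14.7, 15.5, 19.8, 15.3 and 14.9 CPM in Shunt, 9.14, 7.61 and 13.1 CPM in TAC, 17.6, 16.4, 18.1, 16.5 and 17.3 CPM in sham and 11.8, 9.28, 9.78, 11.1 and 11.1 CPM in WT. For both, TAC and WT libraries were low and overlapped, while Shunt and sham were high and overlapped. 4632428C04Rik had a difference of -0.83 ± 0.13, adjusted p = 1.77e-04 relative to sham and 5031425E22Rik one of -0.79 ± 0.14, adjusted p = 4.93e-04. Without TAC replicate 2 the differences were -0.75, adjusted p = 0.0016 for 4632428C04Rik and -0.64, adjusted p = 0.0041 for 5031425E22Rik. With Y-linked level as a covariate neither passed (-0.47, adjusted p = 0.1401, and -0.37, adjusted p = 0.2598). Kmt2e was lower in TAC (-0.33 ± 0.11, adjusted p = 0.0302, and -0.32, adjusted p = 0.0876 without TAC replicate 2) and Hes1 did not pass (0.05 ± 0.16, adjusted p = 0.8410).

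Of the remaining falls, Gm12519 was at 0.359, 0.828 and 0.858 CPM in TAC and 1.46 to 2.53 CPM in sham (-1.51 ± 0.29, adjusted p = 9.04e-04). Gm12319, a transcript of 357 exonic bases that lies 97 bases from the actin-binding profilin gene Pfn1, was at 3.79, 2.88 and 7.21 CPM in TAC and 8.18 to 10.1 CPM in sham (-0.97 ± 0.20, adjusted p = 0.0017). 3222401L13Rik was at 4.11, 3.08 and 4.76 CPM in TAC and 5.57 to 7.41 CPM in sham (-0.72 ± 0.16, adjusted p = 0.0021). For each of the 3, TAC and sham did not overlap. All 3 stayed called without TAC replicate 2 (-1.69, adjusted p = 0.0024 for Gm12519, -0.74, adjusted p = 0.0103 for Gm12319 and -0.58, adjusted p = 0.0156 for 3222401L13Rik).

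**Figure D4:**
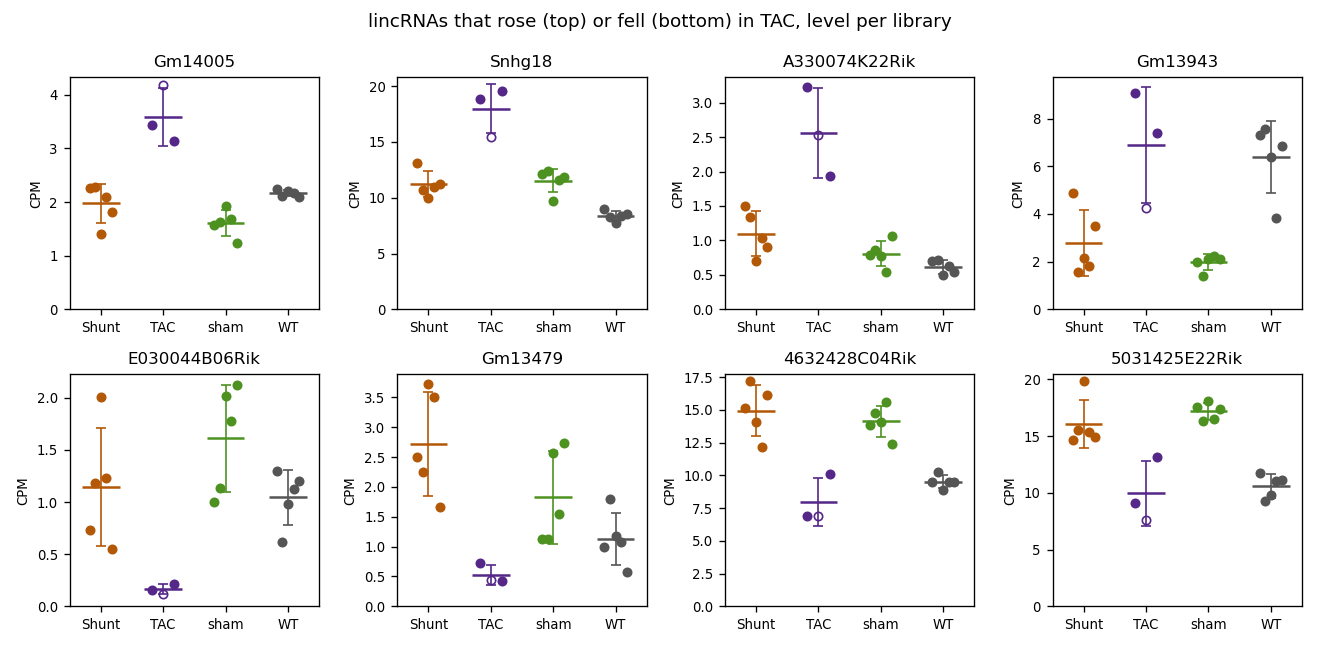
Level in CPM (vertical axes, from 0) of 4 lincRNAs that rose in TAC relative to sham (top row) and 4 that fell (bottom row), per library of Shunt, TAC, sham and WT. Points are libraries, horizontal bars are group means, error bars are SD, and the open circle is the library labelled TAC replicate 2. TAC points lie apart from sham in all 8 panels, and for Gm13943, 4632428C04Rik and 5031425E22Rik they overlap with WT.

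No lincRNA passed the threshold under volume load. Shunt against sham gave 0 calls in edgeR in either direction. At an unadjusted p under 0.05 in that test, 7 of the 119 were higher and 6 lower, beside 1116 higher and 1051 lower of all 14876 genes tested. DESeq2 called Malat1 higher and 9330158H04Rik lower (-0.41, adjusted p = 0.0233) with no adjusted p for 10 lincRNAs. Shunt and sham libraries did not overlap for 5 lincRNAs, Malat1, Gm12319, 9330158H04Rik, 5830454E08Rik and Gm21781, which is 4.2% of the set, beside 4.09% of all genes tested. Within the libraries with Dbp above Arntl, C030037D09Rik was called higher (0.73, adjusted p = 0.0297, against 0.17, adjusted p = 0.797, over all libraries). Genes named here that the naming rule does not give were picked with their values in view. Gm12319 averaged 6.85 ± 0.776 CPM in Shunt and 9.04 ± 0.877 CPM in sham (-0.40 ± 0.17, adjusted p = 0.2904). All Shunt libraries had next to no Ddx3y counts and all sham libraries had at least 2039, so no pair of libraries of 1 sex could be compared. The level of Y-linked genes nearly coincides with these groups, so a fit with it as a covariate cannot test this comparison, and in it the Gm12319 difference turned to 0.80 (adjusted p = 0.8397).

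Between the operations, 27 lincRNAs were higher in Shunt than in TAC, by 0.43 to 2.77 on the log2 scale, and 9 fell by 0.34 to 1.31. Groups did not overlap for 29 (24.4%), as for 24.7% of all genes tested, and 2 of the 27 (6430710C18Rik and Gm20554) reached 1 CPM in fewer than 3 libraries outside Shunt. The comparison shares its TAC libraries with that of TAC against sham. Without TAC replicate 2, 8 of the 27 higher and 6 of the 9 lower calls remained, with no matching share of all genes given. Those that remained among the higher included Malat1, Gm13479, Gdap10, E030044B06Rik, 4632428C04Rik and 5031425E22Rik, and among the lower Gm14005, A330074K22Rik, Snhg18, Gm13943 and Gm16295. Calls of 2900076A07Rik, Gm5860, 4632415L05Rik, Gm12319, Gm12519 and 3222401L13Rik, all higher in Shunt, and of Gm13481 and 1810058I24Rik, lower in Shunt, did not. Shunt lay outside TAC replicates 1 and 4 for 15 of the 27 higher and 8 of the 9 lower, against 78.4% and 79.1% of all genes called. Here too the calls came from the same libraries. With the clock covariate the calls numbered 14 higher and 6 lower. Fibroblast markers summed to 1300 to 2290 CPM in Shunt and 3070 to 7910 CPM in TAC, with 7 of 8 lower in Shunt (3 of 8 without TAC replicate 2). Endothelial markers summed to 1010 to 1150 CPM in Shunt and 1240 to 1380 CPM in TAC, with 3 of 7 lower. Of the other lists, 3 of 7 smooth muscle, 2 of 8 macrophage, 1 of 4 T and B cell and 1 of 4 atrial markers were lower in Shunt. Of 8 ventricular markers 3 were higher and 1 lower, and 2 of 4 red blood cell and 1 of 5 skeletal muscle markers were higher. Reads of no gene were 15.03% to 19.87% in Shunt and 13.64% to 14.86% in TAC, and reads of more than 1 gene 1.432% to 1.541% in Shunt and 1.812% to 2.16% in TAC. The part of these in the lincRNA differences was not tested.

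Gm13479 (chr2:45357265-45404035, 2 exon blocks, 239870 bases from Zeb2) had 2.499, 2.24, 3.72, 3.499 and 1.66 CPM in Shunt, 0.718, 0.434 and 0.429 CPM in TAC, 1.13, 1.13, 2.57, 1.55 and 2.74 CPM in sham and 0.997, 1.803, 1.18, 1.09 and 0.579 CPM in WT. Shunt lay wholly above TAC (2.36 ± 0.41, adjusted p = 5.32e-04, and 2.24, adjusted p = 0.0044 without TAC replicate 2), and sham did too (-1.77 ± 0.41, adjusted p = 0.0035 for TAC against sham, and -1.66, adjusted p = 0.0209 without TAC replicate 2). The TAC libraries held 18, 11 and 10 reads. Gdap10 (chr12:32821872-32826904) lies within Nampt on the same strand, the gene of the rate-limiting enzyme of NAD salvage, so unspliced Nampt reads could be counted in it. It had 1.27, 0.897, 3.02, 1.53 and 1.33 CPM in Shunt, 0.399, 0.118 and 0.343 CPM in TAC, 0.436, 0.302, 1.24, 0.593 and 1.59 CPM in sham and 0.847, 0.412, 0.835, 0.497 and 1.11 CPM in WT. Shunt rose over TAC by 2.48 ± 0.57, adjusted p = 0.0039, and Nampt by 1.08 ± 0.25, adjusted p = 0.0041. The differences without TAC replicate 2 were 2.11, adjusted p = 0.0280 for Gdap10 and 1.04, adjusted p = 0.0273 for Nampt. With the clock covariate (the log2 difference between Arntl and Dbp) Gdap10 no longer passed (1.38, adjusted p = 0.1407).

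Imprinted and cardiac lincRNAs were taken from lists. Meg3 (chr12:109541001-109571726, + strand), the maternally expressed RNA of the Dlk1-Dio3 locus, had 1.999, 2.202, 2.01, 1.75 and 1.66 CPM in Shunt, 1.995, 2.37 and 1.67 CPM in TAC, 1.13, 1.51, 0.919, 0.776 and 1.95 CPM in sham and 1.79, 1.803, 1.82, 1.58 and 2.01 CPM in WT. It was higher in TAC than in sham (0.67 ± 0.23, adjusted p = 0.0329) with overlapping groups, and was not called without TAC replicate 2 (0.53, adjusted p = 0.1617). Sham against WT did not pass (-0.51 ± 0.21, adjusted p = 0.0720). Rian, from the same locus but typed as a processed transcript, did not pass in any comparison, and the locus's lincRNAs Mirg and B830012L14Rik were below the rule. Of the protein-coding genes of the locus, Rtl1 was tested, with means of 1.42 CPM in Shunt, 2.05 CPM in TAC, 0.863 CPM in sham and 0.0912 CPM in WT, and rose in sham over WT (3.12, adjusted p = 0.0264). Rtl1 and the RNAs antisense to it cannot be told apart without strand. Of other imprinted RNAs, Airn and Mcts2 were tested and did not pass in any comparison.

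The list of lncRNAs known from heart and vessels had 27 entries, of which 17 were found by symbol and 14 were tested. Its 5 members were Malat1, Neat1, Meg3, Bvht and Pvt1. Over the 14, sham against WT gave 2 higher and 4 lower, TAC against sham 4 higher and 1 lower, Shunt against sham 0 of either, and Shunt against TAC 3 higher and 1 lower. The counts without TAC replicate 2 were 1 higher and 1 lower in TAC against sham and 2 higher and 1 lower in Shunt against TAC. Bvht, or Braveheart, needed for cardiac commitment of mouse stem cells, averaged 3.34 ± 0.553 CPM in Shunt, 3.72 ± 0.532 CPM in TAC, 3.01 ± 0.3104 CPM in sham and 3.69 ± 0.5683 CPM in WT, and did not pass in any comparison. Mhrt, the antisense RNA of the myosin heavy chain locus and no member, fell in TAC (means 23.8 CPM in TAC, 46.9 CPM in sham, -0.98, adjusted p = 2.46e-05, and -0.81, adjusted p = 4.94e-05 without TAC replicate 2).

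Pvt1 (chr15:62037986-62378096), the lincRNA downstream of Myc, had 1.35, 1.35, 0.503, 1.08 and 1.01 CPM in Shunt, 1.56, 1.58 and 1.202 CPM in TAC, 0.828, 0.641, 0.552, 0.593 and 1.195 CPM in sham and 0.747, 1.13, 0.933, 0.588 and 1.07 CPM in WT. TAC lay just above all sham libraries (0.92 ± 0.30, adjusted p = 0.0273), a call that 11 of 19 other settings kept and that was lost without TAC replicate 2 (0.84, adjusted p = 0.0948). Myc, 47612 bases upstream, had 7.54, 9.86 and 3.43 CPM in TAC and 2.01 to 3.45 CPM in sham (1.37 ± 0.33, adjusted p = 0.0047). Myc did not pass without TAC replicate 2, its highest library (1.02, adjusted p = 0.0504). The list of cell cycle and p53 lncRNAs held 13 names, of which 9 were tested: 2 (Trp53cor1 and Dleu2, neither a member) were higher in sham than in WT, and Pvt1 alone was called in TAC against sham. Its other members did not pass in any comparison: Snhg12, a snoRNA host, averaged 3.69 ± 0.561 CPM in Shunt, 3.54 ± 0.482 CPM in TAC, 3.95 ± 0.437 CPM in sham and 3.35 ± 0.312 CPM in WT, and Epb41l4aos was at 1.79 to 2.37 CPM in Shunt, 1.92 to 2.02 CPM in TAC, 1.32 to 3.33 CPM in sham and 2.16 to 3.25 CPM in WT. Of 7 names in a list of micropeptide loci, 2 were found by symbol among the counted genes, and 0 were tested. The small-protein locus 1810058I24Rik, tested above, was not among those found.

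In all, 5 members host annotated microRNAs, and 7 host small nucleolar RNAs. Of the 12 mature microRNAs that RefSeq lists for 4 of the hosts, the 5p arms and all those of Meg3 are shown, because a host's level can be read beside the product it could give, with the seed, bases 2 to 8, in capitals. First come those of 6720427I07Rik, then 2900076A07Rik, Snhg20 and Meg3.
mmu-let-7a-5p: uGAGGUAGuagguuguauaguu
mmu-let-7f-5p: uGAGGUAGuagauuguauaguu
mmu-let-7d-5p: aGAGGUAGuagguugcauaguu
mmu-miR-1839-5p: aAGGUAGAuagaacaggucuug
mmu-miR-6516-5p: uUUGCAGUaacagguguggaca
mmu-miR-1906: uGCAGCAGccugaggcagggcu
mmu-miR-770-5p: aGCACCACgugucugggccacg
mmu-miR-770-3p: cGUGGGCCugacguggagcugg
The 3 let-7 5p microRNAs of 6720427I07Rik share the seed GAGGUAG, and all of the microRNAs shown lie inside exons of their hosts. Poly(A)-selected libraries read the host transcript and not the mature microRNA.

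2900076A07Rik (chr7:81523550-81531498), the host of miR-1839, had 60.01, 78.2, 79.6, 76.1 and 60.7 CPM in Shunt, 60.4, 36.9 and 57.4 CPM in TAC, 81.5, 72.3, 74.8, 77.2 and 68.2 CPM in sham and 64.2, 68.5, 64.7, 59.1 and 62.4 CPM in WT. TAC was below all sham libraries (-0.54 ± 0.13, adjusted p = 0.0049), also without TAC replicate 2, its lowest library (-0.36, adjusted p = 0.0264), though not within the phase with Arntl above Dbp (-0.58, adjusted p = 0.0696). The let-7 host 6720427I07Rik (chr13:48532905-48546500) was at 1.56 to 2.41 CPM in Shunt, 0.946 to 1.72 CPM in TAC, 0.867 to 2.02 CPM in sham and 0.982 to 1.64 CPM in WT, and no comparison called it. Neither Snhg20 (2.58 to 3.62 CPM in Shunt, 2.05 to 3.39 CPM in TAC, 2.398 to 2.92 CPM in sham and 2.22 to 3.09 CPM in WT) nor 6030443J06Rik (group means of 0.863 to 0.982 CPM) passed in any.

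Since many lincRNAs start beside a protein-coding gene, each called member was read with its nearest one; 70 of the 119 lay within 5 kb of a protein-coding gene or overlapped it. In sham against WT, the neighbour was tested for 33 called lincRNAs and was itself called in the same direction for 8, in the opposite one for 2, and not called for 23. In TAC against sham the counts were 9 same, 1 opposite and 21 not called of 31, and in Shunt against TAC 11 same, 2 opposite and 18 not called of 31. They were, without TAC replicate 2, 4 same, 1 opposite and 18 not called of 23 in TAC against sham, and 3 same, 0 opposite and 12 not called of 15 in Shunt against TAC. With all libraries, 13.5% of all genes tested were called higher and 14.9% lower in sham against WT. The shares were 16.4% and 14.5% in TAC against sham, and 13.3% and 13.6% in Shunt against TAC. The neighbour counts were not tested against these shares. In the fit of all libraries, the opposite case in TAC against sham was Gm14005 with Bcl2l11. Same-direction pairs in that fit included Snhg18 with Sema5a, Gm16295 with Ctdspl, Pvt1 with Myc and 5031425E22Rik with Kmt2e. Without TAC replicate 2, Bcl2l11 (adjusted p = 0.0905), Myc (adjusted p = 0.0504) and Kmt2e (adjusted p = 0.0876) were not called.

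Promoter windows, from 250 bases before to 50 after a RefSeq start on GRCm38.p6, were at hand for 62 lincRNAs (67 windows). They are shown for 3 of the lincRNAs called in TAC whose neighbours were described, and for Meg3. Capitals mark exact matches on either strand to GGGCGG (GC box) in the first, TGAGTCA (AP-1, searched as TGANTCA) in the second, CCAAT and CATTCC (TEAD) in the third, and CCAAT, TGACGTCA (cAMP response element) and TATAAA in the fourth, where its matches on both strands overlap.
Snhg18 promoter: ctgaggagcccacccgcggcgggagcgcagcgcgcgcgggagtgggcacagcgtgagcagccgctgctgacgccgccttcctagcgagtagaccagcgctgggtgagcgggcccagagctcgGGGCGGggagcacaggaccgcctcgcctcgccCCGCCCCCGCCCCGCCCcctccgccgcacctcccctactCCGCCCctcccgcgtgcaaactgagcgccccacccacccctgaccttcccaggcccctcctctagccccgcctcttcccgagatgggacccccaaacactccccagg
Gm14005 promoter: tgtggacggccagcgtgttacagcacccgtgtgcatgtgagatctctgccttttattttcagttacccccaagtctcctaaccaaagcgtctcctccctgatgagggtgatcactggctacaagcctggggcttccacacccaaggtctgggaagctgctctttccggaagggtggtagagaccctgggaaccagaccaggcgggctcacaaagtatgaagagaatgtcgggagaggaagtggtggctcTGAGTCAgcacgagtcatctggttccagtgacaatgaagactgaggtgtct
5031425E22Rik promoter: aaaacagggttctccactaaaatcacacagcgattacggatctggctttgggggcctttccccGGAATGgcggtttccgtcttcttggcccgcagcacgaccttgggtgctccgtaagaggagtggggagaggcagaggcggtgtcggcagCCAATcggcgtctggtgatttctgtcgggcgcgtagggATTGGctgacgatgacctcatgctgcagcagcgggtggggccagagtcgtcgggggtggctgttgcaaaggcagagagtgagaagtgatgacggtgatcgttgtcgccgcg
Meg3 promoter: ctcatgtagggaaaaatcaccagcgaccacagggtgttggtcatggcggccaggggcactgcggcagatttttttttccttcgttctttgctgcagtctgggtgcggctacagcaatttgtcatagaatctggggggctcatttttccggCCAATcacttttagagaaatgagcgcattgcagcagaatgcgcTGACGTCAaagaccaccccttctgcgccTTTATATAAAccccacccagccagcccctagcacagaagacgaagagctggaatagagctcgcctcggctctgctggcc
They lie at chr15:32244613-32244912 (- strand), chr2:128429302-128429601 (- strand), chr5:23433287-23433586 (- strand) and chr12:109540746-109541045 (+ strand). The Gm14005 window is at a RefSeq start inside the GENCODE span of the gene, and not at the 5′ end of that span. Over both strands, GGGCGG stood in 43.3% of the lincRNA windows and in 35.7% of 32851 windows in the table, CCAAT in 25.4% and 37.4%, TATAAA in 7.5% and 13.6%, TGANTCA in 11.9% and 7.8%, TGACGTCA in 6.0% and 1.8%, CACGTG in 10.4% and 7.2%, and CATTCC in 13.4% and 14.7%. The shares rest on few lincRNA windows (4 held TGACGTCA) and are a description of the letters alone.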

How the data were processed

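The deposited files hold raw counts of reads per gene, 1 table per library, which the authors made by RNA-seq of left ventricle. Per the labels' protocols, total RNA was extracted with an RNeasy Fibrous Tissue Mini Kit, and TruSeq RNA v2 libraries were made, a kit that selects poly(A) RNA and does not mark strand. The submitters' processing notes list STAR 2.3.0e, HTSeq 0.6.1p1 and DESeq2 1.8, besides CASAVA 1.8.2, SAMtools 0.1.19 and FastQC, and the GRCm38 build. Gene types and positions are those of GENCODE M21, which matched 36602 of 38355 identifiers, and sequences are those of RefSeq on GRCm38.p6.

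Lines of the count tables that name no gene were left out of library sizes and tests. Reads of no feature were 13.64% to 22.78% of the uniquely aligned reads of a library. Summed gene counts of 19297821 to 30594075 per library set the precision, and at the median lincRNA (53.5 reads) sampling error adds to the spread between animals. Nothing in the labels says that every library came from a separate animal, so p-values measure the spread between these libraries.

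Counts were tested with edgeR 4.0.16 in R 4.3.3 (robust quasi-likelihood fit, TMM scaling, filterByExpr with a minimum count of 10, 1 mean per group over all 18 libraries). Benjamini-Hochberg adjustment ran over the 14876 genes tested, with calls at 0.05, and the common biological coefficient of variation was 0.16. The fit was also run on simulated counts with known changes, and the outcome is not reported here. CPM printed here are scaled by TMM, except in the rule that chose the lincRNAs, and the SE of a log2 difference is its size over the square root of F.

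Named lincRNAs are the 6 most abundant per length, up to 6 called higher and 6 called lower with the smallest p in each comparison, those in fixed lists of known lncRNAs, and hosts of microRNAs. The lincRNAs and the lists were chosen with earlier results of these data known. The main fit did not pair libraries by replicate number. Deviations of libraries numbered 1, 2 and 4 correlated in TAC with sham (0.129, 0.151 and 0.157) and in Shunt with TAC (0.17, 0.139 and 0.0928). The own number was the best match for replicate 4 alone in TAC with sham, and for all pairs of Shunt with TAC. Negative correlations occurred in sham with WT (-0.132 for replicate 3) and in Shunt with sham (-0.264 for replicate 4). Alternatives were RLE scaling, no or a stricter filter, DESeq2 1.42.0, a replicate block, covariates for Y-linked, clock and atrial genes, single clock phases, each pair of groups alone, and each library left out. An alternative without Gm42418 and Gm26917 was added after the data were seen.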

Additional observations from a re-analysis of the deposited data

Results flagged for a closer look

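Of 114 groups of 5 libraries of named lincRNAs, 6 held a library whose gap to the nearest other library, over the range of the group, passed the 95% critical value of Dixon's test (0.71). Chance alone flags about 1 group in 20. 5031425E22Rik had 19.8 CPM in Shunt replicate 3, where the other Shunt libraries had 14.6 to 15.5 CPM. 6720427I07Rik had 0.867 CPM in sham replicate 2, below the other sham libraries at 1.64 to 2.02 CPM. For Gm13943, sham replicate 2 with 1.39 CPM stood below the rest of its group at 2.01 to 2.24 CPM, and WT replicate 4 with 3.84 CPM stood below the rest of its group at 6.39 to 7.57 CPM. Gm20619 was at 2.08 CPM in sham replicate 5 and at 3.08 to 3.43 CPM in the other sham libraries. Snhg18 was at 9.74 CPM in sham replicate 3 and at 11.5 to 12.4 CPM in the other sham libraries. No group of 3 TAC libraries was tested in this way.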

How the results depend on the processing

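Every count is of lincRNAs called higher or lower in the first-named group. In sham against WT (26 higher, 15 lower), libraries with Arntl above Dbp alone gave 3 higher and 7 lower, and those with Dbp above Arntl 13 higher and 4 lower. In TAC against sham (15 higher, 24 lower), the Y-linked covariate gave 2 higher and 0 lower, the clock covariate 9 higher, and libraries with Arntl above Dbp alone 6 higher and 9 lower. In Shunt against sham (0 and 0), libraries with Dbp above Arntl alone gave 1 higher, and DESeq2 gave 1 higher and 1 lower. In Shunt against TAC (27 higher, 9 lower), the clock covariate gave 14 higher, and the fit of these groups alone 13 higher. Leaving out 1 library at a time gave 19 to 25 higher and 9 to 12 lower in sham against WT, 7 to 14 higher and 15 to 26 lower in TAC against sham, 0 and 0 in Shunt against sham, and 8 to 28 higher and 6 to 10 lower in Shunt against TAC. The fewest calls came without WT replicate 1 (9 lower in sham), without TAC replicate 1 (7 higher) or sham replicate 3 (9 higher), and without TAC replicate 2 (15 lower in TAC, 8 higher in Shunt against TAC). The replicate block gave 24 higher and 14 lower in sham against WT, 10 and 23 in TAC against sham, 0 and 0 in Shunt against sham, and 19 and 7 in Shunt against TAC. Same-numbered libraries correlated positively in all pairs of TAC with sham and of Shunt with TAC, and not in all pairs of the other comparisons. Single phases and single pairs hold fewer libraries than the full fit. The cause of the other changes was not tested. Counts of all genes called in the alternatives are not given, so the changes are not read as particular to lincRNAs. No called lincRNA difference turned its direction under any setting run. Among differences not called, 33 of 78 in sham against WT, 40 of 80 in TAC against sham, 65 of 119 in Shunt against sham and 40 of 83 in Shunt against TAC did so under at least 1 setting, with 0 called there. Shunt against TAC had no single-phase fit because the groups share no phase. Depth limits lincRNAs such as E030044B06Rik, with 3 to 5 reads per TAC library.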
